A study of Mus musculus with 48 samples.

Results

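The interferon regulatory factors (IRFs) are a family of transcription factors that share a DNA-binding domain rich in tryptophan. Measured here were 8 members, Irf1, Irf2, Irf3, Irf4, Irf5, Irf7, Irf8 and Irf9, taken by name as 8 of the 55487 genes in the count tables, and all 8 passed the filter on low counts in every fit. RNA came from 4 types of myeloid cell sorted out of digested lymph nodes of tumor-bearing mice whose genotype is given as wild type. The types were macrophages of the medullary sinus (MSM) and of the subcapsular sinus (SSM), both along the lymph channels of a node, migratory dendritic cells (mDC), which come in from tissue, and resident dendritic cells (rDC). Every type was sampled in nodes labelled LN and in tumor-draining nodes (TDLN), after PBS or after cisplatin (CIS), a platinum drug that crosslinks DNA, which gave 16 groups of 3 libraries. No strain, sex or age is given, nor what the LN nodes drained, nor is it said that each library is a different animal, and the spread behind a p-value may thus be technical only.

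The family splits by role. IRF3 and IRF7 lie in the cytoplasm until kinases such as TBK1 phosphorylate them below nucleic acid sensors, and they then switch on type I interferon genes. IRF5 acts below Toll-like receptors in inflammatory cytokine expression. IRF9 is the DNA-binding subunit of the complex that reads the type I interferon signal, and IRF1, itself induced by interferon, drives antigen processing genes, while IRF2 can compete with IRF1 for the same DNA. IRF4 and IRF8 bind weakly alone and act with partners such as PU.1 or BATF. Both set cell identity, IRF8 in the cDC1 subset (the cross-presenting dendritic cells), plasmacytoid dendritic cells and B cells, IRF4 in other dendritic cells, B cells and plasma cells.

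Promoters of Irf1, Irf8 and Irf7 are shown because these genes separated the dendritic cell types most. The windows run from 250 bases before to 50 after a gene start in RefSeq (GRCm38.p6), read along the gene, with the gamma-activated site, a motif of interferon-induced genes (TTCNNNGAA), in capitals. The Irf1 window is chr11:53769764-53770063 (plus strand), the Irf8 window chr8:120736108-120736407 (plus) and the Irf7 window chr7:141266375-141266674 (minus).
Irf1: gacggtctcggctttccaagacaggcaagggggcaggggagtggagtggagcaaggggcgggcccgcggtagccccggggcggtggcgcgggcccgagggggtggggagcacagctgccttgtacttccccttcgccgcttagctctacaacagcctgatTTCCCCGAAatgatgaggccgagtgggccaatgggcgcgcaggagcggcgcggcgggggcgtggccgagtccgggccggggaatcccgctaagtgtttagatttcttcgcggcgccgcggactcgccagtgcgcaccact
Irf8: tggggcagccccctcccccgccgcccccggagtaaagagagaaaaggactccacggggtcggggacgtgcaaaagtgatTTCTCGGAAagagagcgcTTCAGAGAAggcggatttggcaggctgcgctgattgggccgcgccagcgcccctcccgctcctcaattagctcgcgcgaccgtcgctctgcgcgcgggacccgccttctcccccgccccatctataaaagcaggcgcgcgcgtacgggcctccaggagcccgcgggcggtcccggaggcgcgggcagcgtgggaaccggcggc
Irf7: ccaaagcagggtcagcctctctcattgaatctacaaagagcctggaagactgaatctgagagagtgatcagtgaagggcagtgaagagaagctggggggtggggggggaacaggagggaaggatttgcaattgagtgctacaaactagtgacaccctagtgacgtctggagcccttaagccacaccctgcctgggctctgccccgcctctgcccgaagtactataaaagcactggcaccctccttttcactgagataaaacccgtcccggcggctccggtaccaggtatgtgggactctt
Irf1 holds a gamma-activated site 90 bases before its start, and Irf8 holds them 171 and 153 bases before. All 8 genes matched a window, and Irf1, Irf8 and Irf9 each had a further window at another start. Searched on both strands were this site, found in 8.3% of 32851 promoters of that length, the core of the interferon response element (GAAANNGAA, 8.56%) and the ETS-IRF composite (GGAANNGAA, 8.24%). The other match in the family was Irf2, whose window holds an interferon response core, an overlapping composite and a gamma-activated site. No window of Irf3, Irf4, Irf5, Irf7 or Irf9 held any of these letters, which says nothing on binding elsewhere.

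Macrophage libraries held 6.456 to 10.43 M counts, 18 dendritic cell libraries 2.003 to 3.842 M and the 6 libraries of mDC TDLN PBS and rDC LN PBS 10.73 to 15.48 M. These groups are deep as a whole. In any comparison with them, node, treatment or cell type cannot be told apart from depth and whatever went with it. Thinning, given below, evens the counts only. In the LN PBS groups the second MSM and the second SSM library, and in the TDLN CIS groups the first MSM and the third SSM library, resembled the other macrophage label (r of at least 0.9897 with it, at most 0.717 with their own). They are kept as labelled. Counts of members called in macrophages are given with and without these 4 crossed libraries, as are most but not all other macrophage values. Leaving them out leaves 2 libraries in 4 groups. The common coefficient of variation was 0.418 in MSM and 0.403 in SSM against 0.0625 in mDC and 0.105 in rDC. MSM LN CIS went against its label: 15 macrophage markers summed to 1926, 1834 and 1941 CPM (counts scaled to the size of the library), against at least 8737 in any other macrophage library, with Siglec1 at 0.0974 ± 0.169 and Adgre1 at 3.71 ± 0.251 CPM. It is called the library group labelled MSM LN CIS below. Sums of 8 migratory markers were 26636 to 33780 CPM in mDC libraries and 938 to 1557 in rDC.

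Levels are CPM, with TMM scaling over the 12 libraries of 1 cell type. Comparisons between 2 cell types are scaled over 24, so a gene's values can differ slightly between them. Fold changes are log2 ± standard error with adjusted p from edgeR. In bulk samples fewer cells of a type and less RNA per cell cannot be told apart. Comparisons within a cell type share groups and are not independent.

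**Figure D1:**
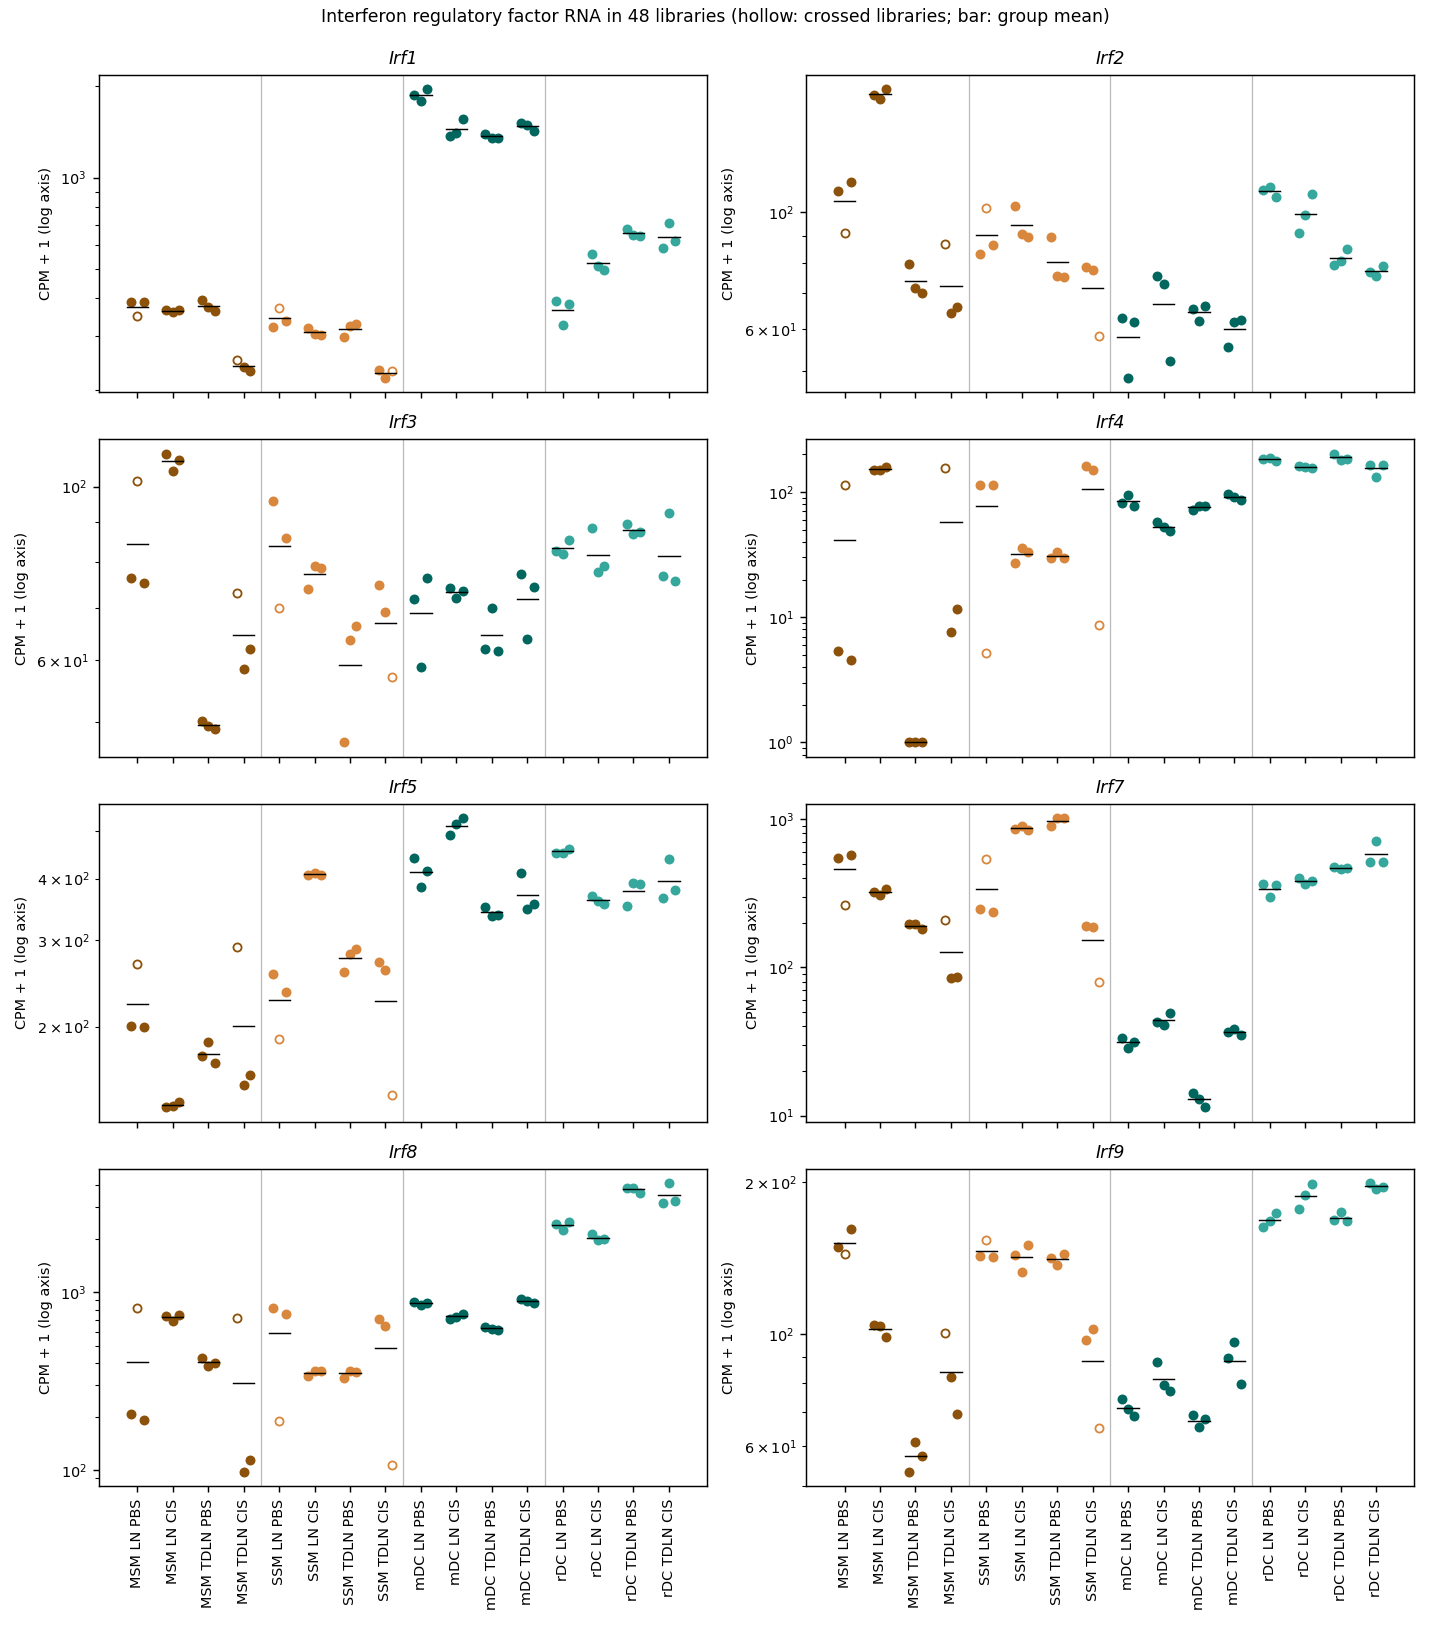
CPM plus 1 (log axis) of the 8 genes in each of 48 libraries, by the 16 groups of cell type, node and treatment, with hollow points for the 4 crossed libraries. Irf1 stands at 1352 CPM or above in every mDC library, Irf7 lies under 50 CPM in all mDC, and the hollow points of Irf4 and Irf8 lie apart from the other points of their group.

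Single members differed in both directions between migratory and resident dendritic cells. Averaged over node and treatment, mDC had more Irf1 and Irf5, and rDC had more Irf7, Irf8, Irf9, Irf4 and Irf2, while Irf3 did not pass the test. This made 7 of 8 members called, where 74.4% of all genes tested were. In LN PBS the rDC group is deep and in TDLN PBS the mDC group, so cell type cannot be told apart from depth there. The average includes both conditions. By condition 6 members were called in LN PBS (66.6% of genes), 7 in LN CIS (54.9%), 6 in TDLN PBS (72.4%) and 6 in TDLN CIS (56.1%); the family's share is thus near the background, and no family-wide shift is read from it.

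Among the effectors of interferon signalling, Irf1 was the most abundant family member per length in mDC, with 1111 to 1429 TPM as group means, and Irf8 the next. Irf1 (GRCm38 chr11:53770014-53778374, plus) averaged 1682 ± 188 CPM in mDC and 481 ± 105 in rDC, a difference of 1.83 ± 0.037, adjusted p = 5.09e-27. It was 2.56 ± 0.075 in LN PBS, 1.78 ± 0.074 in LN CIS, 1.48 ± 0.073 in TDLN PBS and 1.51 ± 0.073 in TDLN CIS, and no mDC library overlapped an rDC library. Its opponent Irf2 was lower in mDC by the average (-0.25 ± 0.053, adjusted p = 0.000147), which came mostly from LN PBS (-0.72 ± 0.11). In LN CIS it was -0.26 ± 0.11, adjusted p = 0.0422. That call was lost under DESeq2, without a filter, with a replicate block or without mDC LN CIS 3 or rDC LN CIS 2 and 3 (adjusted p 0.0588 to 0.338). Irf9 (chr14:55603571-55610030, plus) averaged 83.2 ± 9.38 CPM in mDC and 159 ± 11.1 in rDC (-0.93 ± 0.038, adjusted p = 2.65e-19), between -1.04 ± 0.079 and -0.87 ± 0.077 in the 4 conditions, with no overlap in any.

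Irf7 showed the widest gap of the family. This factor, at chr7:141262706-141266481 on the minus strand, sustains type I interferon production and is abundant in plasmacytoid cells. Libraries of mDC lay at 32.6, 27.3 and 30.4 CPM in LN PBS, 42.0, 40.0 and 48.2 in LN CIS, 13.2, 12.01 and 10.4 in TDLN PBS and 35.4, 37.1 and 33.8 in TDLN CIS. Those of rDC lay at 361, 295 and 357, 396, 365 and 383, 471, 460.0 and 464 and 510.2, 706 and 509 in the same order. Every rDC library was above every mDC library, and the average difference was -3.68 ± 0.059, adjusted p = 1.97e-29. It was -3.28 ± 0.13 in LN PBS, -2.84 ± 0.12 in LN CIS, -4.88 ± 0.12 in TDLN PBS and -3.73 ± 0.12 in TDLN CIS. Irf3, which like IRF7 is switched on by phosphorylation but is made at a steady level in most cells, held 70.9, 57.8 and 75.4 CPM in mDC LN PBS and 81.7, 81.1 and 84.5 in rDC LN PBS. Its average difference was 0.04 ± 0.048, adjusted p = 0.518, which does not show that the types are equal. Without library rDC TDLN CIS 2 it passed at 0.14 (adjusted p = 0.00688). Irf5 averaged 446 ± 69.7 CPM in mDC and 352 ± 42.7 in rDC (0.34 ± 0.035, adjusted p = 9.04e-10). The groups overlapped in LN PBS (0.07 ± 0.07, adjusted p = 0.395) and were farthest apart in LN CIS (0.81 ± 0.071). Without a filter on low counts the LN PBS value was -0.36, where the median of all genes itself shifts by -0.43. In TDLN CIS the difference of Irf5 was 0.20 ± 0.072, adjusted p = 0.0196, lost without mDC TDLN CIS 1 or rDC TDLN CIS 1 and 3 (adjusted p 0.07 to 0.2).

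Of the identity factors, Irf8 was the most abundant member per length in rDC (1842 to 3553 TPM). It lies at chr8:120736358-120756694 (plus). Its mDC libraries held 884, 847 and 873 CPM in LN PBS, 710.2, 725 and 758 in LN CIS, 637, 625 and 617 in TDLN PBS and 914, 897 and 871 in TDLN CIS. The rDC libraries held 2415, 2241 and 2475, 2115, 1966 and 1999, 3869, 3879 and 3613 and 3168, 4111 and 3278. All rDC libraries were higher, with an average difference of -1.57 ± 0.035, adjusted p = 5.79e-26, from -1.16 ± 0.069 in LN CIS to -2.18 ± 0.07 in TDLN PBS. Irf4 (chr13:30749226-30766976, plus) was lower in mDC as well, at 82.2 ± 17.2 against 151 ± 18.04 CPM (-0.90 ± 0.046, adjusted p = 8.1e-17), from -1.28 ± 0.099 in LN CIS to -0.47 ± 0.093 in TDLN CIS, with no overlap in any condition.

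**Figure D2:**
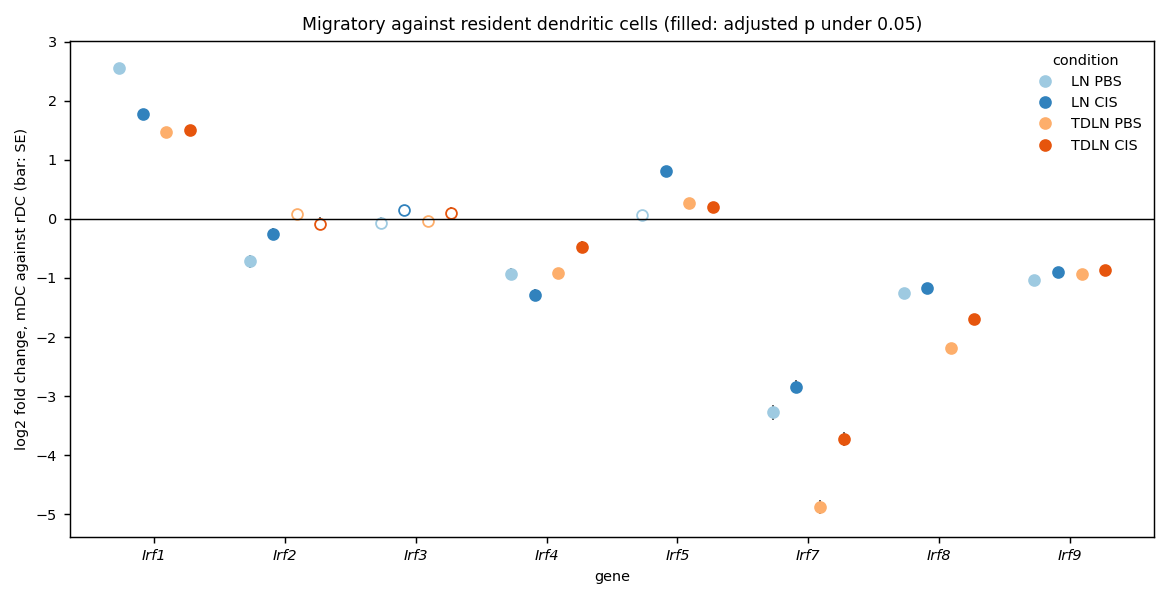
Log2 fold change of mDC against rDC with its standard error for each gene in the 4 conditions, with filled points where the adjusted p is under 0.05. Irf1 lies above 0 in every condition, Irf4, Irf7, Irf8 and Irf9 lie below 0 in every condition, and Irf3 has no filled point.

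Markers of other cells differed along with these genes. Sums of 10 plasmacytoid markers (Siglech, Tcf4 and others) were 160 to 263 CPM in mDC libraries and 2977 to 6189 in rDC. Sums of 10 B cell markers were 157 to 434 and 2054 to 4167, and sums of 7 cDC1 markers 178 to 271 and 1110 to 1682. Since Irf7, Irf8 and Irf4 are made by such cells, these values stand beside their differences, and the part of those cells in them was not tested. Within the cDC1 list Tlr3 was lower in mDC but Batf3 was higher, against the sum, as given below.

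The genes around the family split in the same comparison. Of IRF1 targets in antigen processing, 16 higher and 1 lower of 17 tested (median log2 difference 1.27, all genes tested -0.06), led by Il15 (5.39 ± 0.089), a cytokine for T and NK cells, the GTPase genes Gbp5 (3.82 ± 0.053) and Gbp2 (3.68 ± 0.062), and Cd274 (2.87 ± 0.045), which encodes PD-L1. Interferon-stimulated genes, the targets of IRF9 and IRF7, were 6 higher and 18 lower of 28 tested (median log2 difference -0.87, all genes tested -0.06), with Ifi44 (-3.31 ± 0.16) and Bst2 (-2.74 ± 0.074, also a plasmacytoid marker) lower and the antiviral GTPase gene Mx1 (3.53 ± 0.063) higher in mDC. Sensors and adaptors were 4 higher and 11 lower of 16 tested, with Tlr7 (-4.71 ± 0.14), Tlr3 (-4.10 ± 0.15) and their chaperone Unc93b1 (-2.19 ± 0.045) lower. Partners were 7 higher and 6 lower of 14 tested: Relb (3.83 ± 0.047), Id2 (3.74 ± 0.048) and Batf3 (2.79 ± 0.071) were higher in mDC and Tcf4, the plasmacytoid factor, lower (-2.45 ± 0.036). Kinases were 3 higher and 1 lower of 7 tested, receptors with JAK-STAT members 5 higher and 6 lower of 12 tested, brakes 5 higher and 4 lower of 9 tested, and the remaining IRF-named genes 0 higher and 2 lower of 4 tested. Interferon genes themselves were near 0, their sum reaching at most 5.8 CPM in any library.

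In mDC the changes of the family after cisplatin differed by node. The TDLN side rests on mDC TDLN PBS, the deep group, where condition and depth cannot be told apart. In the LN 5 of 8 members were called (11% of genes): Irf1, Irf4 and Irf8 fell and Irf5 and Irf7 rose. In the TDLN 4 were called (27.3% of genes), Irf4, Irf7, Irf8 and Irf9, all higher after cisplatin. The difference of the cisplatin effect between nodes passed for 4 members (15.6% of genes), Irf1 (0.49 ± 0.072), Irf4 (0.93 ± 0.13), Irf7 (1.07 ± 0.19) and Irf8 (0.76 ± 0.065), each relatively higher in the TDLN. Irf2 joined them without mDC LN CIS 3 (-0.48, adjusted p = 0.0236) and Irf5 without mDC TDLN CIS 1 (-0.28, adjusted p = 0.0294).

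Irf1 in mDC LN libraries went from 1866, 1794 and 1961 CPM with PBS to 1371, 1404 and 1559 with cisplatin, without overlap (-0.38 ± 0.051, adjusted p = 1.69e-05). In the TDLN it was 1397, 1352 and 1353 and 1519, 1487 and 1428, which did not pass (0.11 ± 0.05, adjusted p = 0.103; -0.16 without a filter). Irf8 fell in the LN (-0.25 ± 0.047, adjusted p = 0.000803) and rose in the TDLN (0.51 ± 0.045, adjusted p = 1.94e-08), with the libraries given above not overlapping in either node. Irf7 was lowest in mDC TDLN PBS and rose there 3.00-fold (1.58 ± 0.13, adjusted p = 4.28e-09). In the LN its rise was smaller (0.51 ± 0.14, adjusted p = 0.0156) and was lost without mDC LN CIS 3 or mDC LN PBS 2 and 3 (adjusted p 0.0512 to 0.0628). Irf4 libraries went from 80.2, 93.3 and 76.7 to 56.5, 51.3 and 48.2 CPM in the LN (-0.66 ± 0.10, adjusted p = 6.05e-05) and from 70.7, 77.0 and 76.4 to 95.2, 90.3 and 85.2 in the TDLN. The Irf4 libraries of the TDLN did not overlap (0.27 ± 0.078, adjusted p = 0.0117), yet the value was -0.01 without a filter. The call was lost with the deep libraries thinned to 3 M (0.24, adjusted p = 0.0912) or without mDC TDLN CIS 1 or mDC TDLN PBS 1 (adjusted p 0.0645 to 0.0921). Irf9 rose in the TDLN (0.40 ± 0.077, adjusted p = 0.000443; 0.12, adjusted p = 0.333 without a filter), and Irf5 rose in the LN (0.31 ± 0.065, adjusted p = 0.00224). Without a filter the median of all genes itself shifts by -0.28 in the TDLN comparison, so these values are relative to it.

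Marker sums of other cells were higher after cisplatin in both nodes, as Irf7 was, whereas Irf4 and Irf8 fell in the LN. Plasmacytoid sums went from 202 to 222 CPM to 244 to 253 in the LN and from 160 to 164 to 239 to 263 in the TDLN. B cell sums went from 157 to 177 CPM to 319 to 358 in the LN and from 269 to 284 to 406 to 434 in the TDLN. Their part in the changes of Irf4, Irf7 and Irf8 was not tested.

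Target lists moved in part with the family in mDC. Interferon-stimulated genes in mDC TDLN were 9 higher and 4 lower of 26 tested after cisplatin (median log2 difference 0.31, all genes tested -0.01), with Isg15 (1.57 ± 0.17), a ubiquitin-like modifier, and the oligoadenylate synthetase-like genes Oasl1 (1.39 ± 0.17) and Oasl2 (1.31 ± 0.16) higher. IRF1 targets there were 8 higher and 3 lower of 17 tested, among them the class II transactivator Ciita (0.69 ± 0.072) and the peptide transporter genes Tap2 (0.47 ± 0.05) and Tap1 (0.42 ± 0.052). In mDC LN interferon-stimulated genes were 1 higher and 2 lower of 26 tested and IRF1 targets 1 higher and 6 lower of 17 tested, with Gbp5 (-0.72 ± 0.073) and Cd274 (-0.29 ± 0.056) lower as Irf1 was, and Ciita higher (0.78 ± 0.081).

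Between nodes under PBS, mDC of the TDLN had less Irf1 (-0.45 ± 0.05, adjusted p = 6.06e-07), Irf7 (-1.36 ± 0.14, adjusted p = 1.86e-07), Irf8 (-0.47 ± 0.046, adjusted p = 9.15e-08) and, with -0.28 ± 0.062 turning to 0.07 without a filter, Irf5. These were 4 of 8 members against 29.1% of genes. Without a filter the median of all genes moved by 0.36 in this comparison, and Irf1 (-0.10, adjusted p = 0.147) and Irf8 (-0.12, adjusted p = 0.115) no longer passed, nor did the node difference of the cisplatin effect of Irf1 (0.17, adjusted p = 0.14). Of IRF1 targets 3 higher and 10 lower of 17 tested, and of interferon-stimulated genes 5 higher and 9 lower of 26 tested, Oasl1 (-1.35 ± 0.18) the farthest down. Under cisplatin 3 members were called (14.8% of genes), Irf4 (0.78 ± 0.095, adjusted p = 1.99e-06) and Irf8 (0.29 ± 0.047) higher in the TDLN and Irf5 (-0.47 ± 0.064) lower. Irf5 libraries under cisplatin were 491, 516 and 529.8 CPM in the LN and 410.3, 346 and 354 in the TDLN.

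In resident dendritic cells more members were called between nodes than after cisplatin. Comparisons with rDC LN PBS, the deep group, cannot tell node or treatment apart from depth. In rDC LN 2 members were called (17.9% of genes). Irf1 rose from 389.8, 325 and 383 to 559.5, 509 and 493 CPM (0.51 ± 0.09, adjusted p = 0.00114). Irf5 fell from 450.4, 451 and 459 to 367, 359 and 355 (-0.33 ± 0.078, adjusted p = 0.0078). Neither pair of groups overlapped, and without a filter, where the median of all genes shifts by -0.30, Irf1 no longer passed (0.21, adjusted p = 0.17). Of IRF1 targets, 0 higher and 6 lower of 17 tested passed, among them Gbp2 (-0.81 ± 0.18) and the immunoproteasome gene Psmb9 (-0.54 ± 0.11). In rDC TDLN edgeR called 0 members and 1.01% of genes; 3 members had an unadjusted p under 0.05, and DESeq2 called 0. Interferon-stimulated genes there were 4 higher and 0 lower of 28 tested, Oas2 (1.15 ± 0.19), Oas3 (0.91 ± 0.18), Cmpk2 (0.87 ± 0.17) and Oasl2 (0.82 ± 0.14). Library rDC TDLN CIS 2 stood apart in this group, with Irf8 at 4111 and Irf7 at 706 CPM and a sum of 7 dendritic markers of 53235 CPM against 36251 and 36591. Without it 1 member, Irf8, was called, as lower after cisplatin (-0.22, adjusted p = 0.0324). In the LN Irf8 (-0.23 ± 0.091, adjusted p = 0.091) passed without rDC LN CIS 1 (-0.31, adjusted p = 0.0481) or under DESeq2 (adjusted p = 0.0415). The node difference of the cisplatin effect passed for 2 members (5.31% of genes), Irf1 (-0.55 ± 0.13, adjusted p = 0.0162) and Irf5 (0.40 ± 0.11, adjusted p = 0.0474). That of Irf1 was lost without a filter (-0.29, adjusted p = 0.328) and without rDC LN CIS 1 or rDC TDLN PBS 1 (adjusted p 0.0583 to 0.066). That of Irf5 was lost with a replicate block and without rDC LN CIS 2 and 3, rDC LN PBS 1, 2 and 3 or rDC TDLN PBS 1 and 3 (adjusted p 0.0567 to 0.118).

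By node, rDC of the TDLN carried more Irf8, Irf7 and Irf1 and less Irf2 in both treatments. Under PBS 5 members were called (27% of genes). Irf1 rose from the LN libraries above to 676, 647 and 640.1 CPM (0.84 ± 0.09, adjusted p = 5.64e-06). Irf8 changed by 0.67 ± 0.091, adjusted p = 5.09e-05, Irf7 by 0.46 ± 0.11, adjusted p = 0.00634. Irf2 changed by -0.43 ± 0.085, adjusted p = 0.00172, from 109, 111 and 106 to 78.2, 79.8 and 83.9 CPM. All 4 pairs of groups were without overlap, and Irf7 did not pass without a filter (0.20, adjusted p = 0.234), where the median of all genes shifts by -0.26. Irf5 was -0.27 ± 0.078, adjusted p = 0.0184, lost at an adjusted p of 0.0546 to 0.0901 when rDC TDLN PBS 1 or rDC LN PBS 3 was left out. Under cisplatin 4 members were called (14.8% of genes), Irf8 (0.80 ± 0.091, adjusted p = 2.16e-05), Irf7 (0.59 ± 0.11, adjusted p = 0.00173), Irf2 (-0.37 ± 0.09, adjusted p = 0.0101) and Irf1 (0.29 ± 0.091, adjusted p = 0.0403). Irf1 was lost without rDC LN CIS 2 and 3 (adjusted p 0.103 to 0.132), with a replicate block or without a filter, and Irf2 without rDC LN CIS 3 (adjusted p 0.0778) or without a filter.

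Marker sums of rDC moved with node too. Plasmacytoid sums were 3279, 2977 and 3229.8 CPM in LN PBS, 3402, 3299 and 3369.6 in LN CIS, 5340.3, 5521 and 5589 in TDLN PBS and 5098, 6189 and 5007 in TDLN CIS, so that all TDLN libraries were higher, as for Irf7 and Irf8. B cell sums went the other way, 3634 to 4167 CPM in LN libraries and 2054 to 2393 in TDLN. Irf4 did not follow them: its node differences were 0.05 ± 0.087, adjusted p = 0.725 under PBS (-0.22 without a filter) and -0.04 ± 0.091, adjusted p = 0.825 under cisplatin (0.09 without rDC TDLN CIS 2). The share of these cells in the node differences was not tested. Interferon-stimulated genes in rDC under PBS were 1 higher and 14 lower of 28 tested in the TDLN, opposite in sign to Irf7, with Rtp4 (-1.02 ± 0.19) and Ifit3 (-0.95 ± 0.15) lower. IRF partners were 5 higher and 2 lower of 14 tested, Tcf4 (0.74 ± 0.073) and Batf (0.86 ± 0.17) higher and Id2 (-0.99 ± 0.11) lower.

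**Figure D3:**
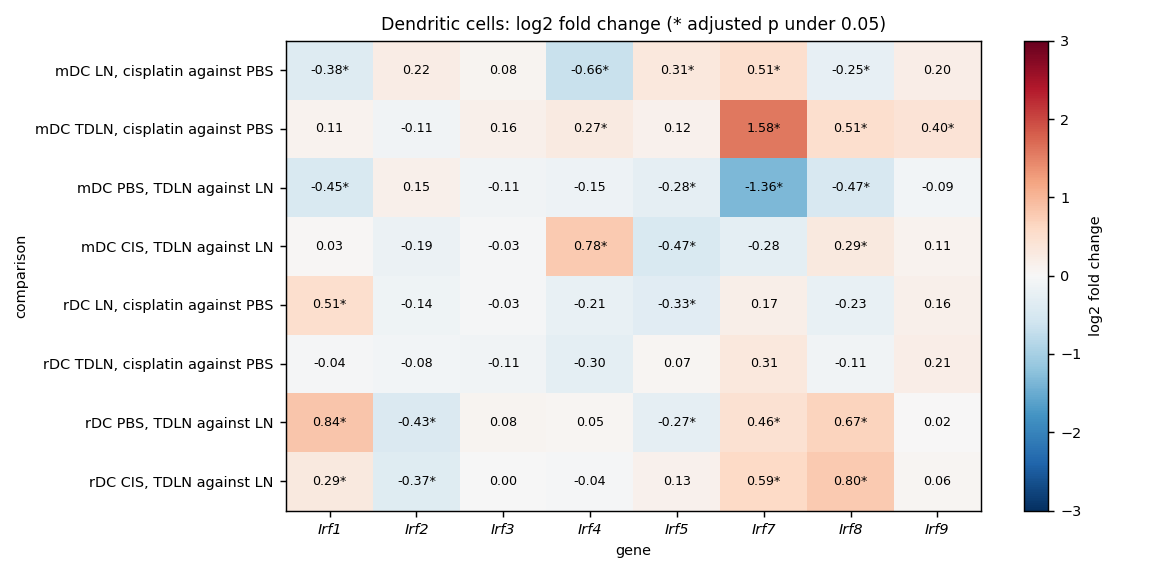
Log2 fold changes of the 8 genes (columns) in 8 comparisons of mDC and rDC (rows), on a color scale from -3 to 3, with a star where the adjusted p is under 0.05. Irf7 in mDC TDLN after cisplatin (1.58) and in mDC of the TDLN under PBS (-1.36) are the deepest cells, and the row of rDC TDLN after cisplatin has no star.

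With all libraries kept, the widest span of group means among macrophages, outside Irf4 in MSM, was that of Irf7 in SSM (6.39 times). Without the crossed libraries it was 5.15 times, and Irf8 (6.87) and Irf7 (6.62) in MSM and Irf4 in SSM (5.18) were wider. Its libraries held 245, 537 and 234 CPM in LN PBS, 859, 899 and 836 in LN CIS, 893, 1009 and 1007 in TDLN PBS and 189, 187 and 78.8 in TDLN CIS, where SSM LN PBS 2 and SSM TDLN CIS 3 are crossed. Cisplatin thus went with more Irf7 in the LN (1.35 ± 0.37, adjusted p = 0.036) and less in the TDLN (-2.68 ± 0.38, adjusted p = 0.00168), and the effect differed between nodes by -4.03 ± 0.53, adjusted p = 0.00101. Without the crossed libraries these were 1.88 ± 0.064, -2.35 ± 0.066 and -4.23 ± 0.092. Groups overlapped in neither node with or without those libraries. The LN call was lost without SSM LN CIS 1, 2 and 3 or SSM LN PBS 1 and 3 (adjusted p 0.0953 to 0.12), but not without SSM LN PBS 2. Under PBS the TDLN was above the LN (1.52 ± 0.37, adjusted p = 0.0178; 2.03 ± 0.065 without the crossed libraries), a call lost without SSM LN PBS 1 and 3 or SSM TDLN PBS 2 and 3 (adjusted p 0.0588 to 0.0684). Under cisplatin it was below the LN (-2.51 ± 0.38, adjusted p = 0.00217; -2.19 ± 0.066).

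Interferon-stimulated genes followed the pattern of Irf7 in SSM. Their 28 genes summed to 1495, 2600.2 and 1498 CPM in LN PBS, 3123, 3158 and 3176 in LN CIS, 3532, 3555 and 3593 in TDLN PBS and 1132, 1139 and 869.5 in TDLN CIS. After cisplatin they were 0 higher and 21 lower of 28 tested in the TDLN (median log2 difference -1.65, all genes tested 0.03) and 8 higher and 0 lower of 28 tested in the LN, and 0 higher and 27 lower and 24 higher and 0 lower without the crossed libraries. In the TDLN Ifit2 (-3.80 ± 0.37), Ifit1 (-3.62 ± 0.57) and Ifit3 (-3.59 ± 0.68), which bind viral RNA, and Rsad2 (-3.44 ± 0.78) fell, while in the LN Oas1a (1.63 ± 0.24) and Oas2 (1.53 ± 0.17) rose. Without the crossed libraries Ifit2 was -3.42 ± 0.096, Ifit1 -3.84 ± 0.096, Ifit3 -3.06 ± 0.073 and Rsad2 -4.39 ± 0.094. Oas1a was then 1.69 ± 0.079 and Oas2 1.45 ± 0.088. The node difference of the effect was 0 higher and 23 lower of 28 tested (0 higher and 27 lower without the crossed libraries). Monocyte marker sums moved in the LN as well, from 849 to 1043 CPM with PBS to 2356 to 2535 with cisplatin, while in the TDLN they were 960 to 1083 and 618 to 1160; their part was not tested. IRF1 targets were split, 1 higher and 2 lower of 17 tested in the TDLN and 0 higher and 1 lower of 17 tested in the LN. Without the crossed libraries they were 8 higher and 8 lower in the TDLN, where 71.1% of all genes passed. In the LN they were then 8 higher and 6 lower, beside 60% of all genes.

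Among the other members in SSM, Irf4 and Irf8 passed in no comparison of treatment or node with all libraries kept. In the TDLN 3 members were called after cisplatin (23% of genes; 6 and 71.1% without the crossed libraries). Besides Irf7, Irf1 fell from 297, 324 and 328 to 231, 218 and 229 CPM (-0.48 ± 0.10, adjusted p = 0.00878). Irf9 fell from 140.4, 136 and 143 to 96.4, 101 and 64.1 CPM (-0.68 ± 0.16, adjusted p = 0.0134), and neither pair of groups overlapped. Without the crossed libraries these were -0.48 ± 0.061 and -0.48 ± 0.067. Irf9 was lost without SSM TDLN PBS 3 (adjusted p 0.0568) and Irf1 without a filter (adjusted p = 0.0505). In the LN 2 were called (13.3%; 4 and 60% without). The other was Irf5, which rose from 254, 188 and 234 to 406, 409.6 and 405 CPM (0.85 ± 0.21, adjusted p = 0.0264; 0.76 ± 0.061 without the crossed libraries). It was lost with a replicate block or without SSM LN CIS 1, 2 and 3 or SSM LN PBS 1 and 3 (adjusted p 0.0512 to 0.0797). Under PBS 1 member, Irf7, was called between nodes (19.7%; 5 and 67.8% without). Under cisplatin 4 were called (17.4%; 7 and 61.9% without): Irf7, Irf1 (-0.45 ± 0.10), Irf5 (-0.86 ± 0.21) and Irf9 (-0.69 ± 0.16), all lower in the TDLN and -0.45 ± 0.061, -0.62 ± 0.061 and -0.50 ± 0.066 without the crossed libraries. Irf1 was lost there without a filter (adjusted p = 0.0759) or without SSM LN CIS 1, 2 and 3 or SSM TDLN CIS 2 (adjusted p 0.0596 to 0.0762). Irf5 was lost without SSM LN CIS 1, 2 and 3 (adjusted p 0.0689 to 0.0696) and Irf9 without SSM LN CIS 1 and 3 (adjusted p 0.061 to 0.0678). The node difference of the effect passed for 2 members (21.6%; 7 and 65.8% without), Irf7 and Irf5 (-1.14 ± 0.30, adjusted p = 0.0231; -0.80 ± 0.086 without). The call of Irf5 was lost without SSM LN CIS 1, 2 and 3, SSM LN PBS 3 or SSM TDLN PBS 2 and 3 (adjusted p 0.0503 to 0.0588).

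In MSM outside the group labelled MSM LN CIS, members that passed with all libraries included Irf1 after cisplatin and Irf9 and Irf3 between nodes. All calls are named in the next paragraph. Without the crossed libraries Irf8 (-1.94 ± 0.075) and Irf7 (-1.18 ± 0.064) after cisplatin in the TDLN moved farther than Irf1, and Irf7 between nodes under PBS (-1.54 ± 0.057) farther than Irf3. Irf1 in the TDLN fell from 394, 372 and 362 to 249, 237 and 229 CPM (-0.66 ± 0.098, adjusted p = 0.000641; -0.69 ± 0.055 without the crossed libraries). Irf9 libraries held 148, 143 and 159.9 CPM in LN PBS, 52.3, 60.1 and 56.3 in TDLN PBS and 99.4, 81.2 and 68.3 in TDLN CIS. Under PBS the TDLN was lower (-1.42 ± 0.14, adjusted p = 5.22e-05; -1.45 ± 0.08 without). After cisplatin Irf9 rose in the TDLN (0.56 ± 0.14, adjusted p = 0.00996; 0.41 ± 0.085 without), the latter lost without MSM TDLN PBS 1 and 3 (adjusted p 0.0645 to 0.0812). Irf3 went from 75.3, 101 and 74.4 CPM in LN PBS to 49.2, 48.5 and 48.1 in TDLN PBS (-0.78 ± 0.14, adjusted p = 0.00181; -0.62 ± 0.072 without). Its rise after cisplatin in the TDLN (0.39 ± 0.14, adjusted p = 0.0494) was lost under DESeq2, without a filter, with a replicate block or without any 1 of the 6 libraries, and was 0.29 ± 0.073, adjusted p = 0.00192 without the crossed libraries.

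Called after cisplatin in MSM of the TDLN were 4 members (37.1% of genes; 8 and 69% without the crossed libraries), Irf1, Irf3, Irf9 and Irf4. Between nodes under PBS 5 were called (38.2%; 7 and 69.7%), Irf9, Irf3, Irf7, Irf2 and Irf4, all lower in the TDLN. Irf7 there was -1.27 ± 0.37, adjusted p = 0.0205 (-1.54 ± 0.057 without the crossed libraries), from 545, 262 and 567 to 194, 195 and 181 CPM. It was lost without MSM LN PBS 1 and 3 or MSM TDLN PBS 1, 2 and 3 (adjusted p 0.0706 to 0.0852). Irf2 was -0.51 ± 0.14, adjusted p = 0.0174 (-0.60 ± 0.07 without), lost without MSM LN PBS 1 and 3 or MSM TDLN PBS 1, 2 and 3 (adjusted p 0.0656 to 0.123). Neutrophil markers stood high in the same libraries, with sums of 6297, 197 and 6074 CPM in MSM LN PBS, 11070.4, 11135 and 10794 in MSM TDLN PBS and 851, 7739 and 7912 in MSM TDLN CIS. The low value of the first and the last group is the crossed library. Their part in these values was not tested. Interferon-stimulated genes under PBS were 0 higher and 14 lower of 28 tested in the TDLN (1 higher and 23 lower without the crossed libraries), as were sensors and adaptors, 0 higher and 11 lower of 15 tested (0 higher and 13 lower without). The sensor and adaptor list includes Slc15a4, which is among 21 genes with 0 counts in all 3 MSM TDLN PBS libraries, described at the end.

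The group labelled MSM LN CIS, low in macrophage markers, differed from its neighbours in a share of members near that of all genes. Against LN PBS 3 members were called (43.4% of genes; 7 and 74% without the crossed libraries). Irf2 was higher at 166, 163 and 170.1 against 108, 90.02 and 113 CPM (0.68 ± 0.14, adjusted p = 0.00381; 0.59 ± 0.068 without). Irf9 was lower (-0.57 ± 0.14, adjusted p = 0.00767; -0.60 ± 0.078 without), as was Irf5 (-0.69 ± 0.23, adjusted p = 0.0335; -0.53 ± 0.061 without). The call of Irf5 was lost with a replicate block or without MSM LN CIS 1, 2 and 3 or MSM LN PBS 1 and 2 (adjusted p 0.0521 to 0.0967). Against TDLN CIS 4 were called (43.3%; 8 and 74.4% without), Irf2 (-1.22 ± 0.14 in the TDLN), Irf1 (-0.61 ± 0.098), Irf3 (-0.75 ± 0.14) and Irf7 (-1.35 ± 0.37). These were -1.37 ± 0.072, -0.64 ± 0.055, -0.85 ± 0.07 and -1.93 ± 0.064 without. Irf7 was lost there without MSM TDLN CIS 2 and 3 (adjusted p 0.0517 to 0.0533). The node difference of the effect passed for 3 (40.7%; 7 and 65.1% without), Irf9 (1.13 ± 0.19, adjusted p = 0.00114; 1.01 ± 0.12 without), Irf1 (-0.61 ± 0.14, adjusted p = 0.0054; -0.60 ± 0.077) and Irf2 (-0.71 ± 0.20, adjusted p = 0.0169; -0.78 ± 0.10). Irf2 was lost without a filter (adjusted p = 0.053). All 3 rest on the group labelled MSM LN CIS. Its B cell sums were 5026, 4935 and 5057 CPM and its plasmacytoid sums 1322, 1250.3 and 1315.

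**Figure D4:**
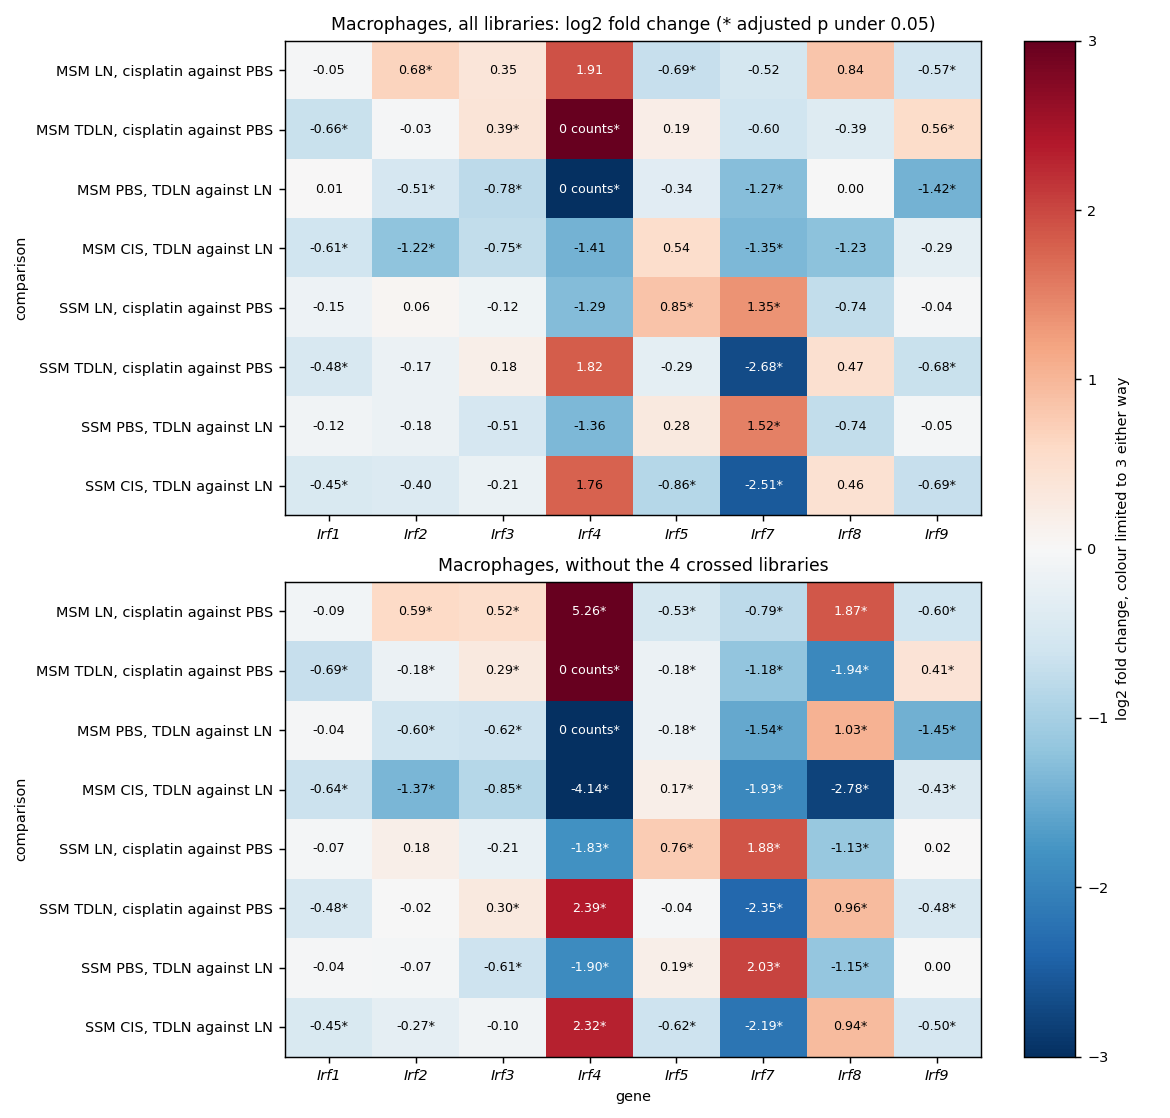
Log2 fold changes of the 8 genes in 8 comparisons of MSM and SSM, with all libraries (top) and without the 4 crossed libraries (bottom), on a color scale from -3 to 3, with a star where the adjusted p is under 0.05. Irf7 in SSM keeps its direction in both panels, while Irf8 in MSM of the TDLN under PBS turns from 0.00 to 1.03, and 26 of 64 cells gain a star in the bottom panel, where 60% to 74.4% of all genes pass.

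Irf4 and Irf8 divided the macrophage libraries by more than their labels. Irf4 held 4.34, 113 and 3.52 CPM in MSM LN PBS and 113, 4.20 and 112 in SSM LN PBS, where the second library of each is crossed. It held 153, 6.60 and 10.6 in MSM TDLN CIS and 159.9, 149 and 7.67 in SSM TDLN CIS, where the first of MSM and the third of SSM are crossed. In the other groups it was 148, 149 and 156 (MSM LN CIS), 26.3, 34.9 and 32.3 (SSM LN CIS) and 28.9, 31.9 and 28.5 (SSM TDLN PBS), and 0 counts in all 3 libraries of MSM TDLN PBS. Set against 3 counts per library, Irf4 was at least 150-fold higher in MSM TDLN CIS than in MSM TDLN PBS (22.6-fold without the crossed library), at least 106-fold higher in MSM LN PBS (10.4-fold) and at least 79.8-fold higher in SSM TDLN PBS. DESeq2 gave no adjusted p for these 3 differences. The edgeR call in MSM TDLN after cisplatin was lost without MSM TDLN CIS 1 or MSM TDLN PBS 1, 2 and 3 (adjusted p 0.0546 to 0.0568), and that between nodes under PBS with a replicate block (adjusted p = 0.0595) or without MSM LN PBS 2 or MSM TDLN PBS 1, 2 and 3 (adjusted p 0.0613 to 0.0837).

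Irf8 was on the same side as Irf4 in the crossed libraries but not in MSM TDLN PBS, where Irf4 was at 0 (r between both 0.625 over 24 macrophage libraries). It held 206, 817 and 191 CPM in MSM LN PBS, 817, 188 and 754 in SSM LN PBS, 714, 97.0 and 113 in MSM TDLN CIS and 703, 645 and 106 in SSM TDLN CIS, the crossed library again on the other side. In MSM LN CIS it held 732, 689.8 and 744, in MSM TDLN PBS 429, 384 and 399, in SSM LN CIS 337, 361 and 358 and in SSM TDLN PBS 331, 362 and 358. No macrophage comparison called Irf8 with all libraries. Without the crossed ones it passed in all 14, for example in SSM LN after cisplatin (-1.13 ± 0.06), in SSM TDLN after cisplatin (0.96 ± 0.061) and in MSM TDLN after cisplatin (-1.94 ± 0.075). Irf4 then passed in SSM after cisplatin in the LN (-1.83 ± 0.093) and the TDLN (2.39 ± 0.093), about as far as Irf7 (1.88 ± 0.064 and -2.35 ± 0.066) and with the opposite sign.

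B cell and plasmacytoid markers were high in the same libraries. Where Irf4 exceeded 100 CPM, B cell sums were 5026, 4935 and 5057 CPM (MSM LN CIS) and, in the LN PBS and TDLN CIS groups, 3545 to 5013, and they were at most 1224 in the other libraries, where Irf4 was at most 34.9 CPM. Plasmacytoid sums were 1092 to 1385 CPM in the macrophage libraries where Irf8 was at least 645 CPM and at most 342 in the others. Cd22, a regulator of the B cell receptor, was among the 3 genes closest in pattern to Irf4 (r below). Whether these cells carried the Irf4 and Irf8 RNA was not tested.

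**Figure D5:**
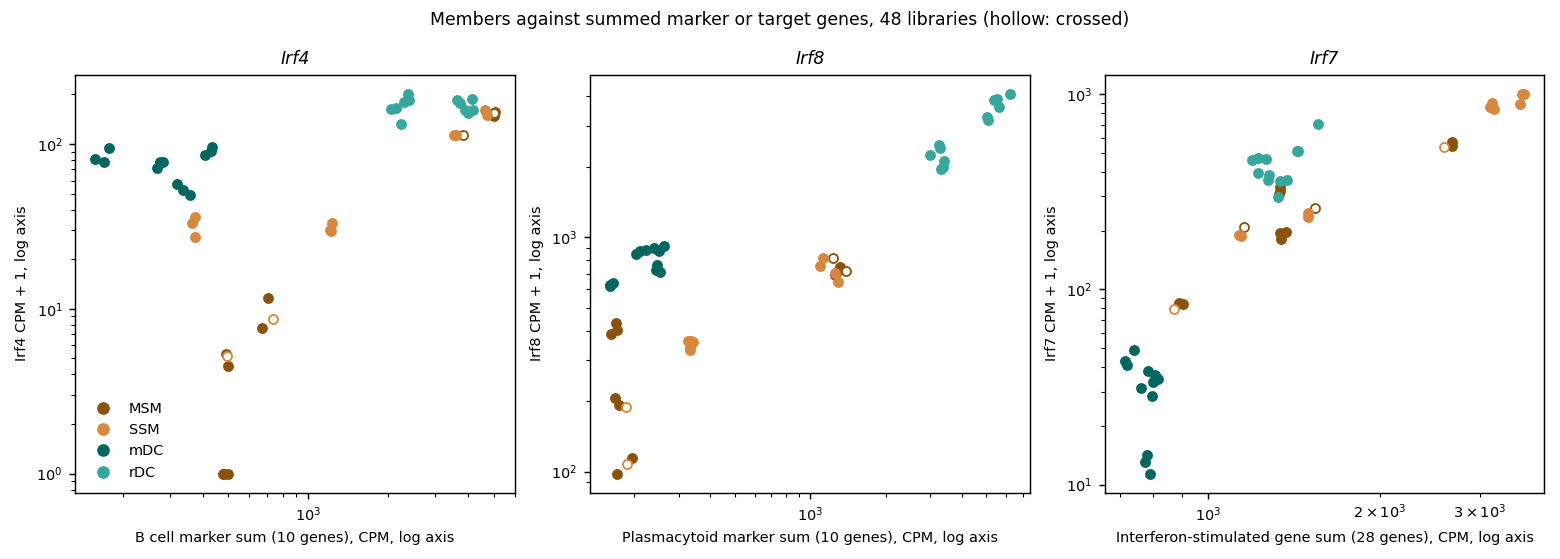
Level of a gene against a list sum in 48 libraries (CPM, log axes), colored by cell type: Irf4 against 10 B cell markers, Irf8 against 10 plasmacytoid markers, and Irf7 against 28 interferon-stimulated genes. Macrophage libraries with Irf4 above 100 CPM have B cell sums of at least 3545 CPM, and mDC libraries lie lowest for Irf7.

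Medullary and subcapsular macrophages could be compared only where labels and profiles held together. In LN PBS edgeR called 0 members and 0% of genes (245 genes and 0 members at an unadjusted p under 0.05, 2 genes and 0 members by DESeq2). In TDLN CIS it called 0 and 0% (178 genes and 0 members unadjusted, 0 and 0 by DESeq2). Each of these groups holds a crossed library. Without them 7 members passed in LN PBS (62% of genes) and 7 in TDLN CIS (63.3%). Irf8 was then lower in MSM in both (-2.09 ± 0.077 and -2.75 ± 0.08), and Irf7 higher in LN PBS (1.11 ± 0.064) and lower in TDLN CIS (-1.23 ± 0.069).

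TDLN PBS has no crossed library. There 5 members were called (40.8% of genes; 7 and 67.1% in the fit without crossed libraries). Irf7 was at 188 ± 7.46 CPM in MSM and 978 ± 68.7 in SSM (-2.38 ± 0.40, adjusted p = 0.000107). Irf9 was at 55.8 ± 3.79 and 141 ± 3.30 CPM (-1.34 ± 0.15, adjusted p = 1.04e-06). Irf4, as above, and Irf5 (-0.67 ± 0.23, adjusted p = 0.0269) were lower in MSM too, and Irf1 was higher (0.23 ± 0.082, adjusted p = 0.0327). No pair of these groups overlapped. Irf5 was lost without MSM TDLN PBS 1, 2 and 3 or SSM TDLN PBS 2 and 3 (adjusted p 0.0569 to 0.0873). Irf1 was lost with a replicate block, without a filter or without MSM TDLN PBS 1 and 2 or SSM TDLN PBS 1 (adjusted p 0.0641 to 0.141). Interferon-stimulated genes there were 0 higher and 21 lower of 28 tested in MSM (median log2 difference -2.11, all genes tested -0.06), and sensors and adaptors 1 higher and 10 lower of 16 tested. In the fit without crossed libraries the former were 1 higher and 25 lower and the latter 1 higher and 14 lower. Slc15a4, of the latter list, had 0 counts in all 3 MSM TDLN PBS libraries. The interferon-stimulated sums of MSM TDLN PBS were 1335, 1367 and 1343 CPM. In LN CIS, with the group low in macrophage markers, 5 members were called (49.7%; 8 and 72.4% in the fit without crossed libraries). Irf5 (-1.62 ± 0.24), Irf7 (-1.49 ± 0.39) and Irf9 (-0.53 ± 0.15) were lower in MSM, and Irf2 (0.78 ± 0.14) and Irf3 (0.43 ± 0.16) were higher. Irf1 (0.18 ± 0.082, adjusted p = 0.0703) passed under DESeq2 and without MSM LN CIS 2, MSM LN CIS 3 or SSM LN CIS 1 (adjusted p 0.0306 to 0.0459). Irf9 was lost without SSM LN CIS 3 (adjusted p 0.0501) and Irf3 without a filter or without MSM LN CIS 1 or SSM LN CIS 1 (adjusted p 0.0624 to 0.0765).

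Over all 16 comparisons of treatment and node, calls were spread unevenly over the family, in an order that turned with the crossed libraries. With all libraries Irf7 was called in 11 of 16, Irf1 in 9, Irf5 in 8, Irf8 and Irf9 in 6, Irf2 and Irf4 in 5, and Irf3 in 3, with Irf8 called only in dendritic cells and Irf3 only in MSM. Without the crossed libraries Irf8 was called in 14 of 16, Irf7 in 13, Irf5 in 12, Irf4 in 11, Irf1 in 9, Irf2 and Irf9 in 7 and Irf3 in 6. The share of all genes called ran from 1.01% (rDC TDLN after cisplatin) to 43.4% (MSM LN after cisplatin) with all libraries. In macrophages it was 60% to 74.4% without the crossed ones. No result about the family is read from these counts. Within a cell type the highest group mean of Irf3 was 1.08 times the lowest in rDC, 1.14 times in mDC, 1.43 times in SSM (1.55 without the crossed libraries) and 2.20 times in MSM with and without them. For Irf7 it was 1.70 times in rDC, 3.66 times in mDC, 6.39 times in SSM (5.15 without the crossed libraries) and 3.66 times in MSM (6.62 without).

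As a description, patterns over the 24 libraries of a table were compared by Pearson's r of log2(CPM + 1). Libraries of a group share cell type and condition, so r mostly reflects group means. In dendritic cells Irf7 ran with Irf9 (0.961) and Irf8 (0.950) and against Irf1 (-0.906), and Irf1 ran against Irf9 (-0.942). In macrophages the highest r between members were 0.755 for Irf3 with Irf4 and 0.749 for Irf7 with Irf9. Among 10639 genes in dendritic cells, the 3 most like Irf1 were Clu (0.988), H2-Q6 (0.987) and Spsb1 (0.986), and those most like Irf7 were Ldha (0.994), Scarb1 (0.993) and Cd300lf (0.993). Most like Irf8 were Galk1 (0.986), Serpinh1 (0.985) and Cyb561a3 (0.985), most like Irf4 Tmem131 (0.961), Dock2 (0.954) and Nup205 (0.948) and most like Irf9 Syk (0.981), Pik3ap1 (0.981) and Acap1 (0.98). The closest to Irf5 were Csf2ra (0.913), Arf2 (0.899) and Efhd2 (0.885), to Irf2 Ndufa4 (0.893), Hmgn1 (0.868) and Tmem243 (0.864) and to Irf3 Ppp1r12c (0.711), Phc2 (0.692) and Map3k11 (0.661), the lowest values of the family. Among 10557 genes in macrophages, the closest to Irf4 were Ints4 (0.992), Snn (0.98) and Cd22 (0.977), to Irf7 Ifi47 (0.949), Oasl2 (0.931) and Slamf8 (0.929), to Irf9 Xaf1 (0.953), Ifi211 (0.934) and Slfn2 (0.921) and to Irf5 Oas1g (0.963), Pqlc2 (0.943) and Dusp22 (0.941). Those of Irf7, Irf9 and Irf5 include interferon-stimulated genes (Ifi47, Oasl2, Xaf1, Ifi211, Oas1g). The rest were Ahsa1 (0.949), Snx29 (0.949) and Snx30 (0.937) for Irf8, Cct3 (0.965), Parp2 (0.947) and Tubb5 (0.926) for Irf2, Trim25 (0.937), Coq9 (0.933) and Tmem131l (0.933) for Irf3 and Vkorc1l1 (0.877), Ylpm1 (0.87) and Fasn (0.868) for Irf1.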

How the data were processed

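The values are gene-level estimated counts that the authors made with STAR and RSEM 1.3.0 on GRCm38, per the submitters' processing notes, from libraries of polyadenylated RNA made with a kit that keeps strand, per the labels' protocols. They were deposited as whole numbers for 48 libraries in 2 tables of 55487 genes, one for macrophages and one for dendritic cells. The authors also deposited TPM for dendritic cells, and for macrophages TPM without decimals, treated as a score and used for order of levels only. DESeq2 1.38.3 is named in the notes as well. Columns named Tumor and WT in the dendritic count table were read as TDLN and LN, the second by elimination. No per-sample column was left unused, and 99.4% of genes had a symbol.

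Each cell type was fitted by itself (12 libraries, 4 groups), and the 24 libraries of a table together for MSM against SSM and mDC against rDC, 29 comparisons in all. The main test was edgeR 4.0.16 (R 4.3.3, limma 3.58.1), the quasi-likelihood F test after filterByExpr and TMM scaling, with Benjamini-Hochberg adjustment over all genes and a limit of 0.05. Each standard error was taken as the absolute log2 fold change divided by the square root of its F value. The scripts were tested on simulated counts. Alternatives were DESeq2 1.42.0, its size factors, no filter, a replicate block, each library left out, the 4 crossed libraries left out, and dendritic libraries above 5 M counts thinned to 3 M. Figures were drawn with Python 3.11.15 and matplotlib 3.10.9.

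The members and gene lists were chosen with earlier results of these data known. All 8 members are named. From a list, up to 4 genes a comparison could be named, those with the largest change among genes that passed, averaged at least 4 CPM and had groups that did not overlap. Genes most like a member were the 3 with the highest r among those averaging at least 4 CPM.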

Additional observations from a re-analysis of the deposited data

Results flagged for a closer look

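The effect of cisplatin differed between tumor-draining and other nodes for 11 combinations of gene and cell type with all libraries, each by a test of the difference itself (edgeR, log2 change in TDLN minus log2 change in LN, Benjamini-Hochberg adjusted p). In mDC these were Irf8 at 0.76 ± 0.065, adjusted p = 2.13e-08, Irf7 at 1.07 ± 0.19, adjusted p = 0.000384, Irf4 at 0.93 ± 0.13, adjusted p = 1.89e-05 and Irf1 at 0.49 ± 0.072, adjusted p = 5.36e-05, all on the side of the TDLN. In rDC Irf1 went the other way (-0.55 ± 0.13, adjusted p = 0.0162), and Irf5 was at 0.40 ± 0.11, adjusted p = 0.0474. These mDC and rDC values each include a deep group, mDC TDLN PBS or rDC LN PBS. In them node or treatment cannot be told apart from depth. In SSM the differences were -4.03 ± 0.53, adjusted p = 0.00101 for Irf7 and -1.14 ± 0.30, adjusted p = 0.0231 for Irf5. In MSM they were 1.13 ± 0.19, adjusted p = 0.00114 for Irf9, -0.61 ± 0.14, adjusted p = 0.0054 for Irf1 and -0.71 ± 0.20, adjusted p = 0.0169 for Irf2, in a cell type whose LN CIS group lacks the macrophage markers. Without the 4 crossed libraries 7 members passed in MSM and 7 in SSM, among them Irf8 in MSM (-3.81 ± 0.10) and in SSM (2.09 ± 0.086) and Irf4 in SSM (4.21 ± 0.13), beside 65.1% and 65.8% of all genes. The call of Irf5 in SSM was lost without any 1 of 6 libraries (adjusted p 0.0503 to 0.0588), that of Irf5 in rDC with a replicate block (0.0794) or without any 1 of 7 (0.0567 to 0.118), and that of Irf1 in rDC without a filter (0.328) or either of 2 libraries (0.0583 to 0.066). Irf1 in mDC (0.14) and Irf2 in MSM (0.053) were lost without a filter. Whether the effect differed between cell types was not tested. Groups of 3 libraries are too small for a test of single outlying libraries.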

How the results depend on the processing

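Leaving out the 4 crossed libraries added calls in most macrophage comparisons. The members called then numbered 7 in MSM LN and 8 in MSM TDLN after cisplatin, 8 between nodes under cisplatin and 7 for the node difference in MSM. In SSM they numbered 4 in LN and 6 in TDLN after cisplatin, 5 between nodes under PBS, 7 under cisplatin and 7 for the node difference. Between MSM and SSM they were 7 in LN PBS, 8 in LN CIS and 7 in TDLN CIS. Irf5 in MSM TDLN after cisplatin turned from 0.19 ± 0.23 to -0.18, and Irf8 in MSM under PBS between nodes, 0.00 ± 0.74 with all libraries, was 1.03 without them. The share of all genes called rose as well, as given beside each count.

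With DESeq2 the members called were 2 in MSM TDLN after cisplatin, 2 in SSM under PBS between nodes and 4 for the node difference in SSM. DESeq2 gave no adjusted p for Irf4 in MSM TDLN after cisplatin, in MSM under PBS between nodes and in TDLN PBS between MSM and SSM, nor for Irf8 in MSM under PBS between nodes, where its size factors gave 0.0557. Irf3 in LN PBS between mDC and rDC was 0.0164 with DESeq2 and 0.0149 with its size factors. Testing without a filter on low counts moved the median of the genes of the main test by -0.43 to 0.36 in dendritic cells. The members called were then 4 in rDC LN after cisplatin, 2 between nodes of rDC under cisplatin and 1 for their node difference. In mDC, Irf1 was -0.16 and Irf4 -0.00521 in the TDLN after cisplatin, and between nodes under PBS Irf3 was 0.25, Irf5 0.0739 and Irf9 0.27. Irf4 in rDC under PBS between nodes was -0.22, and Irf5 in LN PBS between mDC and rDC was -0.36. Thinning deep libraries lost the call of Irf4 in mDC TDLN alone among the values recomputed. Fits with thinned libraries have fewer counts, and those with left-out libraries fewer samples. The cause of the changes was not tested for any of these settings.

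The labels number the libraries of each group from 1 to 3, but same-numbered libraries did not deviate together: the correlation of deviations was over 0.1 in 1 of 18 pairs of MSM, 3 of 18 of SSM, 1 of 18 of mDC and 0 of 18 of rDC, so no pairing was assumed. With the replicate block 1 member was called in SSM LN after cisplatin and 1 for the node difference in rDC, Irf8 in MSM under PBS between nodes was 0.0672, and 8 calls were lost, with adjusted p from 0.0505 to 0.0863. These were Irf5 in MSM LN, Irf3 in MSM TDLN and Irf5 in SSM LN after cisplatin, Irf4 in MSM under PBS and Irf1 in rDC under cisplatin between nodes, Irf5 for the rDC node difference, Irf1 in TDLN PBS between MSM and SSM and Irf2 in LN CIS between mDC and rDC.

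Leaving out 1 library lost 29 of the 106 calls of a member in a comparison; the libraries are named beside the calls. Signs changed for 11 values. Irf2 in MSM TDLN after cisplatin ranged from -0.18 to 0.0622, Irf5 there from -0.18 to 0.36 and Irf8 there from -1.94 to 0.0438. Irf8 in MSM under PBS between nodes ranged from -0.34 to 1.03, and Irf7 for the MSM node difference from -0.66 to 0.20. Between MSM and SSM, Irf2 in TDLN CIS ranged from -0.20 to 0.0495, Irf9 in TDLN CIS from -0.33 to 0.00112, Irf3 in LN PBS from -0.19 to 0.0807 and Irf5 in LN PBS from -0.22 to 0.0355. Irf4 between nodes of rDC ranged from -0.0822 to 0.0857 under cisplatin and from -0.0120 to 0.0548 under PBS. Members called ranged from 2 to 4 in MSM under PBS between nodes, 1 to 4 in MSM TDLN after cisplatin, 3 to 5 for the MSM node difference, 0 to 2 in SSM LN after cisplatin, 0 to 2 in SSM under PBS and 1 to 4 under cisplatin between nodes, 1 to 5 for the SSM node difference, 2 to 4 in rDC under cisplatin between nodes, 0 to 1 in rDC TDLN after cisplatin, 0 to 2 for the rDC node difference and 3 to 4 in TDLN PBS between MSM and SSM. Depth limits Irf4 in MSM TDLN PBS, where 0 counts allow up to 3 per library.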

Other observations

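Other genes of the interferon pathway, fixed as lists with the members, also moved in these cells. In SSM of the TDLN after cisplatin, where Irf7 fell, the isopeptidase gene Usp18, a brake on interferon receptor signalling, was at -2.59 ± 0.14 (-2.73 ± 0.083 without the crossed libraries), and Stat2, whose product binds IRF9, was at -0.99 ± 0.21 (-0.73 ± 0.072 without). In SSM of the LN after cisplatin Usp18 was at 1.13 ± 0.14 (1.20 ± 0.078 without), with the receptor subunits Ifnar1 (0.78 ± 0.13; 0.84 ± 0.059 without) and Ifngr2 (0.77 ± 0.12; 0.91 ± 0.056 without) and the adaptor Myd88 (0.95 ± 0.12; 1.02 ± 0.06 without) higher too. In rDC of the TDLN under PBS the IRF kinase gene Ikbke was higher (1.53 ± 0.14), as were Ifnar2 (0.70 ± 0.077) and the endosomal DNA sensor Tlr9 (1.24 ± 0.38), while Tlr3, the sensor of double-stranded RNA, was lower (-0.98 ± 0.17). Averaged over conditions, mDC exceeded rDC in the brakes Socs1 (2.32 ± 0.085) and Usp18 (1.95 ± 0.036) and in the kinases Jak2 (1.57 ± 0.049) and Tyk2 (1.52 ± 0.038), and were lower in Ifngr1 (-1.81 ± 0.061) and Ifnar2 (-1.66 ± 0.041). All of these passed the edgeR test at an adjusted p of 0.05.

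Irf4 was not alone in having 0 counts in the 3 MSM TDLN PBS libraries. There 21 genes had 0 counts in all 3 libraries while averaging at least 10 CPM in each of the other 7 macrophage groups, of 7547 genes at that level in those groups, among them Slc15a4, a transporter gene needed for signalling by endosomal Toll-like receptors, whose other group means were 76.2 to 118 CPM. In MSM LN CIS 38 genes did so, of 7607. None did in the other 6 macrophage groups, and in dendritic cells 1 gene did, Zc3h11a in mDC TDLN CIS. Of those 6, the LN PBS and TDLN CIS groups of MSM and SSM each hold a crossed library with the profile of the other label. There 0 counts in all 3 libraries requires absence from both profiles, so the lack of such genes in these groups is not read. SSM LN CIS and SSM TDLN PBS hold no crossed library, and none was found in them. The genes were counted in this way after the Irf4 values were seen. The group means include the crossed libraries. Without them Irf4 averaged 3.93 CPM in MSM LN PBS and 8.58 in MSM TDLN CIS, under the limit of 10 CPM. The count of genes was not made without them.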
